A study of Mus musculus with 7 samples.

Results

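In left atria overexpressing FOG2, 39 genes were counted at 1 CPM or more in every library, while each of them lay under 1 CPM in every wild type library. CPM is a gene's count per 1000000 counts that its library held in gene rows. The 39 were selected from the 24421 gene rows of the count table by 3 conditions: under 1 CPM in each of the 3 wild type (WT) libraries, 1 CPM or more in each of the 4 libraries labelled FOG2 overexpression (FOG2 OE), and a mean CPM at least 2 times higher in FOG2 OE. Of 10737 genes under 1 CPM in every WT library, 43 passed both CPM limits, of which 2 were set aside by name and 2 missed the fold. The opposite selection, under 1 CPM in every FOG2 OE library and 1 CPM or more in every WT library with the same fold, found 35 genes. Since the contrast itself chose the 39 genes, their FOG2 OE and WT values are a description and carry no test.

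All libraries were made from left atria of adult mice of the CD1 strain, an outbred stock, that had been off doxycycline for 1 week. The overexpressing atria carried the genotype label FOG2 Overexpression and the others the label WT, and the labels' protocol refers to the animals as DTG and NTG. The labels do not say which promoter and cell type drove FOG2, of which sex the animals were, or whether each library was a separate animal. The title of the series ties FOG2 to an atrial gene network bound by TBX5 and GATA4 and to the risk of atrial fibrillation.

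Zfpm2 encodes FOG2, a zinc finger protein that acts by binding other proteins and does not need to bind DNA itself. It attaches to GATA transcription factors, in the heart chiefly GATA4, and can lower or raise transcription of their targets, and mice without it fail to form coronary vessels and a normal heart. A transcript close to 0 in RNA of a whole atrium may be missing from all cells or present in few of them, and fewer cells of a type cannot be told apart from less RNA per cell in these bulk libraries.

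Zfpm2 itself was not silent in WT. It had 146, 239, 271 and 246 CPM in FOG2 OE replicates 1 to 4, against 31.2, 28.5 and 27.9 CPM in WT replicates 1 to 3. Every FOG2 OE library was above every WT library, with means of 225 ± 54.7 CPM (SD, n = 4) and 29.2 ± 1.77 CPM (SD, n = 3), and the log2 fold change was 2.82 ± 0.22 (SE), with an adjusted p of 2.05e-04 by edgeR's quasi-likelihood test with Benjamini-Hochberg adjustment. Over the whole table, 206 of 13295 tested genes were higher (1.55%) and 438 lower (3.29%) by that test, against 444 higher and 294 lower when libraries were scaled by their totals only. Leaving out 1 library at a time gave 75 higher and 181 lower without WT replicate 2 and 493 higher and 658 lower without FOG2 OE replicate 1, the lowest and highest counts. Gene counts came to 8655655, 6448260, 5562520 and 8610508 in the FOG2 OE libraries and to 8521897, 7673309 and 8579443 in the WT libraries, so that 1 count stood for 0.116 to 0.180 CPM and the limit of 1 CPM for 5.56 to 8.66 counts. FOG2 OE replicate 1 stood apart from the rest of its group: its log CPM correlated with those of replicates 2 to 4 at r = 0.947 to 0.949 across genes, while those 3 correlated with each other at 0.978 to 0.983 and the WT libraries at 0.977 to 0.983. Replicate 1 of FOG2 OE and replicate 2 of WT held the Y-linked transcript Ddx3y, at 297 and 242 CPM, and hardly any Xist, at 0.116 and 0.521 CPM. The other 5 libraries held Xist at 775 to 1160 CPM and Ddx3y at 0 to 0.310 CPM.

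The word silent fitted the WT libraries only loosely. No member had 0 counts in all 3 WT libraries, 8 had 0 counts in at least 1 of them, and the highest count of any member in a WT library was 8. Summed over the 3 WT libraries, members had 1 to 21 counts, with a median of 13. The lowest count of a member in a FOG2 OE library was 6. All members together made up 174, 148, 174 and 233 CPM in FOG2 OE replicates 1 to 4, against 19.1, 17.9 and 18.5 CPM in WT replicates 1 to 3. Gpr83 and Frem3 held a large share of that sum, and without them the members made up 114, 105, 113 and 126 CPM in FOG2 OE and 17.8, 17.3 and 18.1 CPM in WT. There is no time course in these data, so that the order in which the genes appeared was not measured.

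**Figure D1:**
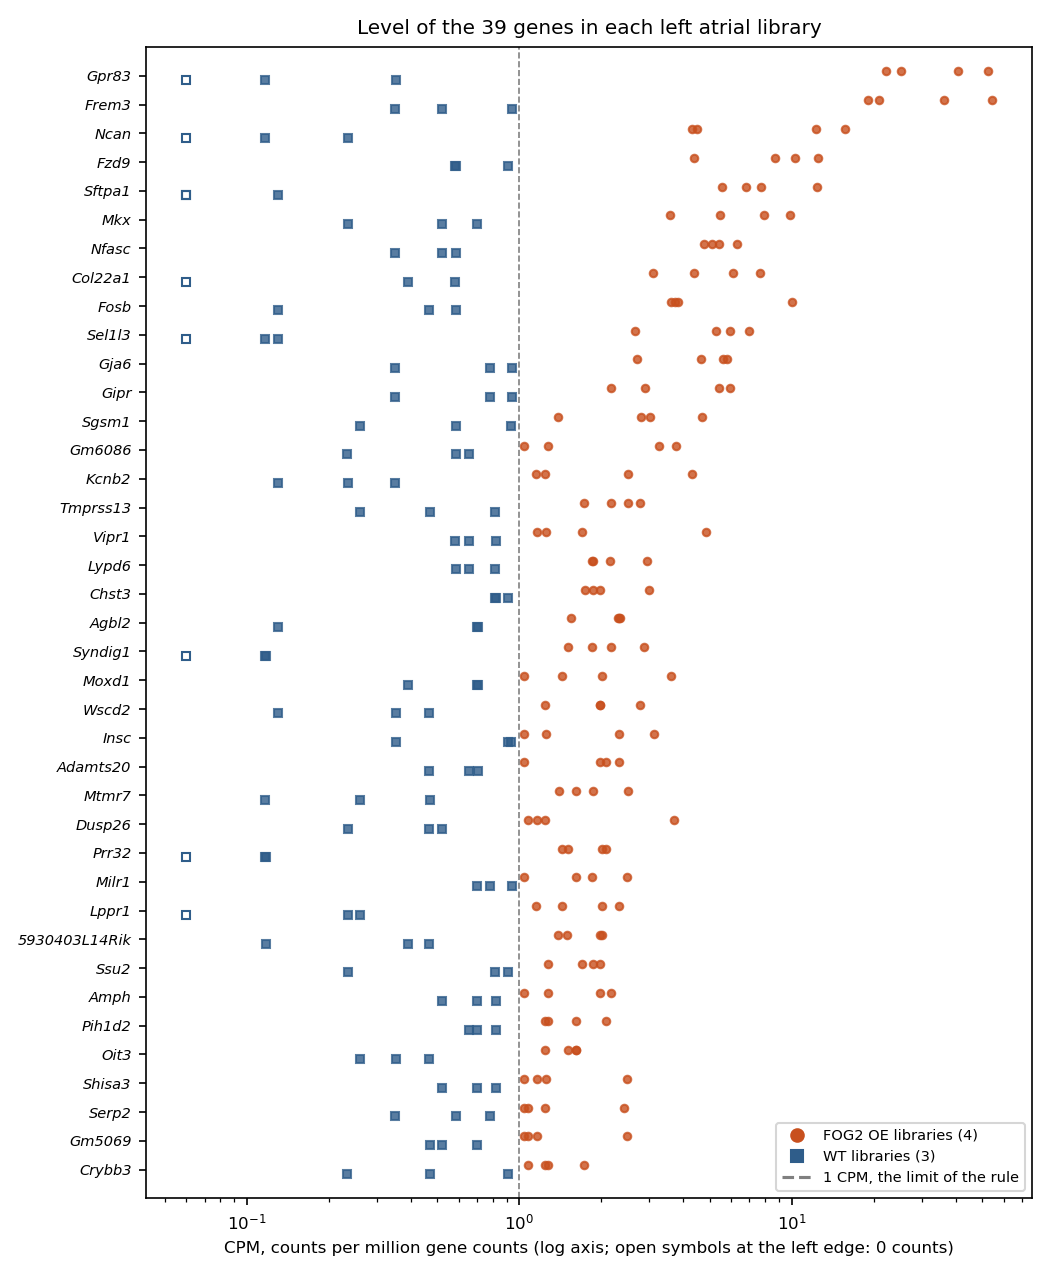
CPM of each of the 39 genes in each library on a log axis, with genes ordered by their FOG2 OE mean. Circles are the 4 FOG2 OE libraries and squares the 3 WT libraries, open squares at the left edge mark 0 counts, and the dashed line is the limit of 1 CPM that the selection used, which every FOG2 OE value is above and every WT value below.

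The members were sorted by hand into 6 kinds. They were 7 receptors or receptor partners, 8 matrix, secreted or adhesion proteins, 2 transcription factors and 4 channel, gap junction or synaptic proteins. Another 10 were enzymes and other regulators, and 8 were genes of other or little known function. The enzyme Chst3 was placed with the matrix genes. The ratio of the FOG2 OE mean to the WT mean ran from 2.15 to 225 with a median of 5.003, and was 10 or more for 13 members, between 5 and 10 for 7 and under 5 for 19. It was 10 or more for 5 of the 8 matrix, secreted and adhesion genes (median 13.7) and for 2 of the 7 receptors and partners (median 3.28). Only 2 members, Gpr83 and Frem3, averaged 10 CPM or more in FOG2 OE, another 8 averaged 5 to 10 CPM, 12 averaged 2 to 5 CPM and 17 less than 2 CPM.

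Among the receptors, Gpr83, a G protein-coupled receptor best known from the brain, had 40.9, 22.2, 25.2 and 52.5 CPM in FOG2 OE replicates 1 to 4, against 0.352, 0 and 0.117 CPM in WT replicates 1 to 3. Its WT values rested on 4 counts in all, so the ratio of 225 was imprecise: the ratio of pooled counts was 230, with a 95% counting interval of 89.7 to 847. Without WT replicate 1, which held 3 of those counts, the ratio of means was 604. Per length of its exons, Gpr83 reached 6.91 ± 2.78 RPKM (CPM per kilobase of exon; SD, n = 4) in FOG2 OE, and it ranked 5379 among all gene rows by mean FOG2 OE CPM. In the GENCODE M21 annotation of mm10, Gpr83 spans positions 14860210 to 14870789 of chromosome 9, plus strand.

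Fzd9, a Frizzled receptor for Wnt ligands, had 4.39, 8.68, 10.2 and 12.5 CPM in FOG2 OE, against 0.587, 0.912 and 0.583 CPM in WT, a ratio of 12.9. Replicate 1 was the lowest FOG2 OE library. Gipr, the receptor of the gut hormone GIP, had 2.89, 2.17, 5.39 and 5.92 CPM in FOG2 OE and 0.939, 0.782 and 0.350 CPM in WT (ratio 5.93). Vipr1, a receptor of vasoactive intestinal peptide, had 4.85, 1.71, 1.26 and 1.16 CPM in FOG2 OE and 0.821, 0.652 and 0.583 CPM in WT. Its ratio of 3.28 leaned on replicate 1 and was 2.01 without that library. The other genes of this kind had lower ratios. Lypd6, a membrane-anchored Ly6 family protein, averaged 2.203 ± 0.516 CPM in FOG2 OE and 0.685 CPM in WT (ratio 3.22). Milr1, an inhibitory receptor of mast cells, averaged 1.75 ± 0.594 CPM in FOG2 OE and 0.807 CPM in WT (ratio 2.17). Shisa3 belongs to a family whose founding member, in Xenopus, holds Frizzled and FGF receptors inside the cell, and its ratio was 2.18.

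Of the matrix, secreted and adhesion genes, Frem3 and Ncan encode large extracellular matrix proteins. Frem3, a basement membrane protein related to Fras1, had 19.1, 20.9, 36.1 and 54.2 CPM in FOG2 OE replicates 1 to 4, against 0.939, 0.521 and 0.350 CPM in WT replicates 1 to 3. The WT libraries held 15 counts of it, and the ratio of pooled counts was 54.6 (95% counting interval 32.9 to 97.95). It reached 5.11 ± 2.56 RPKM (SD, n = 4) in FOG2 OE, the second level per length among the members after Gpr83. Frem3 spans positions 80611080 to 80695356 of chromosome 8, plus strand. Ncan, which encodes neurocan, a chondroitin sulfate proteoglycan of the brain, had 15.7, 4.50, 4.31 and 12.3 CPM in FOG2 OE and 0.235, 0 and 0.117 CPM in WT. Replicates 1 and 4 of FOG2 OE were both well above replicates 2 and 3. With 3 WT counts, the pooled ratio of Ncan was 83.2 with a 95% counting interval of 28.2 to 406, and without WT replicate 1 its ratio of means was 158 in place of 78.7.

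Sftpa1, a collectin of lung surfactant, had 7.74, 6.82, 5.57 and 12.4 CPM in FOG2 OE replicates 1 to 4, against 0, 0.130 and 0 CPM in WT replicates 1 to 3. A single count in WT replicate 2 was its whole WT signal, and the pooled ratio of 211 had a 95% counting interval of 37.5 to 8356. Sftpa1 spans positions 41131782 to 41136452 of chromosome 14, plus strand. Markers of lung epithelium were near 0 in both groups. The 11 genes of that list summed to 0.899 to 1.40 CPM in FOG2 OE and to 1.06 to 1.43 CPM in WT, with Sftpc, Slc34a2 and Cldn18 at 0 in every library and none of the 11 passing the filter on low counts.

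Col22a1, a collagen of tissue junctions such as that of muscle and tendon, had 4.39, 3.10, 6.11 and 7.67 CPM in FOG2 OE and 0, 0.391 and 0.583 CPM in WT (ratio 16.4, and 27.2 without WT replicate 3). Nfasc, an L1 family adhesion protein of nodes of Ranvier and axon initial segments, had 5.43, 5.12, 6.29 and 4.76 CPM in FOG2 OE and 0.587, 0.521 and 0.350 CPM in WT (ratio 11.1). Nfasc was the steadiest of the members with a FOG2 OE mean of 5 CPM or more, its highest FOG2 OE library being 1.32 times its lowest. Markers of neurons, which also express Nfasc, Ncan and Gpr83, were low in both groups. The 14 genes of that list summed to 6.82 to 8.37 CPM in FOG2 OE and to 5.87 to 9.91 CPM in WT, with Snap25, Th, Chat and Slc18a3 at 0. Schwann cell markers summed to 110 to 135 CPM in FOG2 OE and to 74.5 to 87.2 CPM in WT, and 1 of the 6 tested, Mbp, was called higher (log2 fold change 0.47 ± 0.11, SE; edgeR quasi-likelihood test with Benjamini-Hochberg adjustment, adjusted p = 0.0432), a call lost in 6 of 12 other settings with an adjusted p of up to 0.163. The part of those cells in the Nfasc values was not tested. The remaining genes placed here were Adamts20, a secreted metalloprotease (ratio 3.06), Chst3, an enzyme that sulfates chondroitin (ratio 2.53), and Oit3, a secreted protein known from liver (ratio 4.16).

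The 4 members with the highest ratio that have a RefSeq promoter were Gpr83, Sftpa1, Ncan and Frem3, and the sequence at their starts is shown so that GATA words, the letters that GATA factors bind, can be seen in place. Each run is the 250 bases before the RefSeq gene start and the first 10 bases after it, in the direction of the gene, from assembly GRCm38.p6. Capitals mark GATA words, meaning GATA with A or T before it and A or G after it, and the TATA word TATAAA, both searched on either strand.
Gpr83, chr9:14859960-14860219, plus strand: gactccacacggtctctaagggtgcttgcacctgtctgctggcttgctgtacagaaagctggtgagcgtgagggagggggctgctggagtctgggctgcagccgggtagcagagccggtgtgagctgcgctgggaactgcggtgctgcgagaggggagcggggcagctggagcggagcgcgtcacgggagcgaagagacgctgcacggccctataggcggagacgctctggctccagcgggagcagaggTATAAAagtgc
Sftpa1, chr14:41131538-41131797, plus strand: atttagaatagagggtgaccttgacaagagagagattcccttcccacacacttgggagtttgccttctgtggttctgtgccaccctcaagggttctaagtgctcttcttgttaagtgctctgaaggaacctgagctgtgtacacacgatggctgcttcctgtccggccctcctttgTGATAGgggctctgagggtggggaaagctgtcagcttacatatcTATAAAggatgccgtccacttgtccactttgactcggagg
Ncan, chr8:70120835-70121094, minus strand: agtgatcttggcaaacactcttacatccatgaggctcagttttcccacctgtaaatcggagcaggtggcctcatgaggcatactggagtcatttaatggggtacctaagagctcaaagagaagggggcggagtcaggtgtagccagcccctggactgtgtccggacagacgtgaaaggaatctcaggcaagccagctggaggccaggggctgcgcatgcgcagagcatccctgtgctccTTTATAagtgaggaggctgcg
Frem3, chr8:80610789-80611048, plus strand: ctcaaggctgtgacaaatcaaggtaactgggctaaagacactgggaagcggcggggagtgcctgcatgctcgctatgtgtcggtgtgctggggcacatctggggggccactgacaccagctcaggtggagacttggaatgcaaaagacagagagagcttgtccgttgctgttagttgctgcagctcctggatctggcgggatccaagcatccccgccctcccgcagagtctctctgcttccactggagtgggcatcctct
The run of Sftpa1 held a GATA word at base 177 and TATAAA at base 221, that of Gpr83 held TATAAA at base 250, across the start at base 251, and that of Ncan held the same word on the other strand at base 240. The run of Frem3 held neither.

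RefSeq promoters, 250 bases before to 50 bases after the start, were found for 28 members, with 32 starts in all. GATA words were in 7 of the 32 (21.9%), against 29.8% of all 32851 RefSeq promoters of that length. The motif of T-box factors AGGTGTG was in 0 of 32 against 5.84% of all, the AP-1 motif TGANTCA in 2 (6.25%) against 7.81%, TATAAA in 4 (12.5%) against 13.6%, the cyclic AMP element TGACGTCA in 0 against 1.79%, and the E-box CACGTG in 2 (6.25%) against 7.15%, each searched on both strands. A word in such a window is a match of letters and not a bound site. The observed over expected CpG content of the members' promoters had a median of 0.610, lying between that of all promoters (0.384) and that of the promoters of tested genes (0.740). Their median GC content was 61.8%, against 52.7% for all promoters and 60.7% for the promoters of tested genes. The shares of words were not matched for this base content, so they do not show that members have fewer GATA words than promoters like them.

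The 2 transcription factors among the members had similar ratios. Mkx, a homeobox factor of tendon, had 3.58, 7.91, 9.89 and 5.46 CPM in FOG2 OE, against 0.235, 0.521 and 0.699 CPM in WT (ratio 13.8). Fosb, a subunit of the AP-1 factor that is induced by stimuli within minutes, had 10.1, 3.72, 3.595 and 3.83 CPM in FOG2 OE, against 0.587, 0.130 and 0.466 CPM in WT (ratio 13.4). Replicate 1 stood alone for Fosb, and without it the ratio was 9.42. For Mkx that library was instead the lowest of the group.

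Among the channel, gap junction and synaptic genes, Gja6, a connexin of rodents on the X chromosome, had 5.78, 4.65, 2.70 and 5.57 CPM in FOG2 OE, against 0.939, 0.782 and 0.350 CPM in WT (ratio 6.77). Kcnb2, a pore-forming subunit of Kv2 potassium channels, had 1.16, 1.24, 2.52 and 4.30 CPM in FOG2 OE and 0.235, 0.130 and 0.350 CPM in WT (ratio 9.66). Syndig1, which helps to place AMPA receptors at synapses, had 1.85, 2.17, 2.88 and 1.51 CPM in FOG2 OE and 0.117, 0 and 0.117 CPM in WT. With 2 WT counts, the pooled ratio of Syndig1 was 24.96 with a 95% counting interval of 6.61 to 211. Amph, the endocytic protein amphiphysin, averaged 1.62 ± 0.543 CPM in FOG2 OE and 0.681 CPM in WT (ratio 2.37).

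Of the enzymes and other regulators, Sel1l3, a membrane protein with repeats like those of the ER degradation factor SEL1L, had 2.66, 5.27, 5.93 and 6.97 CPM in FOG2 OE replicates 1 to 4, against 0, 0.130 and 0.117 CPM in WT replicates 1 to 3. It had 2 WT counts, and its pooled ratio was 63.5 with a 95% counting interval of 17.3 to 529. Lppr1, now named Plppr1, a membrane protein of neurons, averaged 1.73 ± 0.532 CPM in FOG2 OE and 0.165 CPM in WT (ratio 10.5). The phosphoinositide phosphatase gene Mtmr7 had a ratio of 6.55, and Sgsm1, a regulator of Rab GTPases, 1.39, 2.79, 4.67 and 3.02 CPM in FOG2 OE and 0.587, 0.261 and 0.932 CPM in WT (ratio 5.003). Tmprss13, a serine protease of the cell surface, had 1.73, 2.17, 2.52 and 2.79 CPM in FOG2 OE and 0.469, 0.261 and 0.816 CPM in WT (ratio 4.47). Agbl2, a carboxypeptidase that trims tubulin, averaged 2.13 ± 0.386 CPM in FOG2 OE and 0.511 CPM in WT (ratio 4.17). The phosphatase gene Dusp26 had 3.70, 1.24, 1.08 and 1.16 CPM in FOG2 OE and 0.235, 0.521 and 0.466 CPM in WT. Its ratio was 4.40, and 2.85 without replicate 1. Moxd1, related to dopamine beta-hydroxylase, had a ratio of 3.38, Insc, which orients the mitotic spindle, 2.65, and Serp2, an ER stress protein, 2.53.

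The members of other or little known function had lower levels. Prr32, a proline-rich protein on the X chromosome, had 2.08, 2.02, 1.44 and 1.51 CPM in FOG2 OE and 0.117, 0 and 0.117 CPM in WT (pooled ratio 22.0, 95% counting interval 5.79 to 186). Because its exons are short, it reached 1.59 RPKM in FOG2 OE, near the 1.64 RPKM of Mkx. Wscd2 had a ratio of 6.30, the RefSeq long non-coding RNA 5930403L14Rik 5.30, Gm6086, which RefSeq lists under Gal3st2c, 4.77, Ssu2 2.60, Gm5069 2.56, the lens crystallin gene Crybb3 2.48 and Pih1d2 2.15. By level per length, the members ran from Gpr83 at 6.91 RPKM, Frem3 at 5.11, Fzd9 at 3.91, Sftpa1 at 2.85 and Gja6 at 2.32 RPKM in FOG2 OE to Wscd2 at 0.130 RPKM.

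Counting error was 1 limit on how well each ratio was known, beside the spread between libraries. The 95% counting interval of the pooled ratio had a lower bound above 2 for 25 of the 39 members, and the lowest bound of any member was 1.16. These intervals cover counting error only, not the spread between atria, and the selection favours ratios that chance has raised. A total of 5 members had 3 WT counts or fewer: Sftpa1, Sel1l3, Syndig1, Prr32 and Ncan. The filter on low counts was passed by 35 members, all but Dusp26, Shisa3, Serp2 and Gm5069, and edgeR's test called 22 of them higher, beside 1.55% of all tested genes. The selection and that test used the same contrast, so this count supports nothing.

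**Figure D2:**
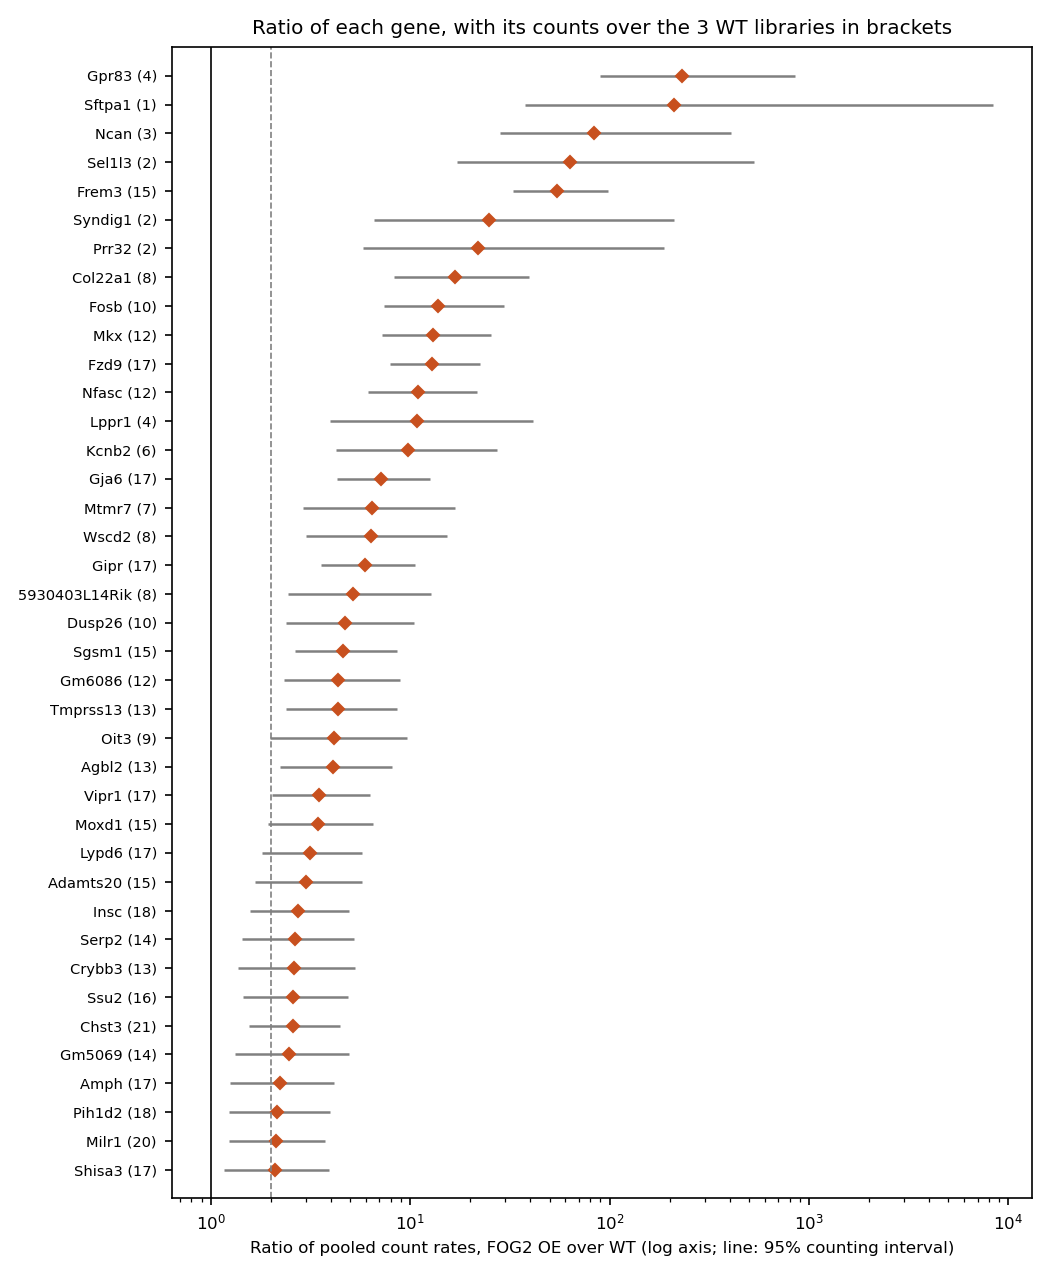
Ratio of pooled count rates, FOG2 OE over WT, for each of the 39 genes on a log axis, with the 95% counting interval as a line and the number of WT counts in brackets. The interval widens as WT counts fall, from 32.9 to 97.95 for Frem3 with 15 WT counts to 37.5 to 8356 for Sftpa1 with 1.

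Close to the limits, a few counts decided membership, and the same conditions found 63 genes in place of 39 without WT replicate 1 and 64 without WT replicate 3. Frem3, Gja6 and Gipr had their highest WT library at 0.939 CPM, while Dgkg at 1.04 CPM and Gjb5 and Myoz1 at 1.05 CPM were just outside. Gm6086, Moxd1 and Amph had their lowest FOG2 OE library at 1.04 CPM, while Spdl1 at 0.930 CPM and Fam64a at 0.929 CPM missed that limit. Pih1d2, Milr1 and Shisa3 had the lowest ratios inside, at 2.15, 2.17 and 2.18, and Scarna17 at 1.88 and Endou at 1.86 were just outside.

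The members differed in which of the 4 FOG2 OE libraries was highest, and no correlation among them was computed. Replicate 1 was the highest FOG2 OE library for 11 members, replicate 2 for 7, replicate 3 for 9 and replicate 4 for 12. Replicate 4 was highest for 30.8% of the members and for 10.6% of all 7755 genes in the members' range of FOG2 OE means. The coefficient of variation over the FOG2 OE libraries had a median of 35.3% for the members and 19.6% for those genes. Neither figure was tested, since the selection set a minimum in every FOG2 OE library and most members lie at the low end of that range, where counting error is larger.

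Replicate 1, the library that stood apart, split the members. It was at least 2 times the mean of replicates 2 to 4 for 6 of 39 members (15.4%, against 6.83% of the 7755 genes), namely Vipr1 at 3.53 times, Dusp26 at 3.19, Fosb at 2.70, Ncan at 2.23, Serp2 at 2.16 and Insc at 2.02 times. It was lower by at least 2 times for 7 members (17.9%, against 5.79%), namely Gm6086, Sgsm1, Fzd9, Kcnb2, Sel1l3, Moxd1 and Mkx, at 0.38 to 0.46 times. These shares were not tested either, since most members lie at the low end of the range of the 7755 genes, where counting error is larger. Replicate 1 also had the least Zfpm2 of its group, 146 CPM. Its summed level of members, 174 CPM, was not the lowest. By single genes, it was the lowest FOG2 OE library for 15 members, against 8, 7 and 9 for replicates 2 to 4. Of the 7755 genes, 2377 were lowest in it. The median member had 0.84 times its mean of replicates 2 to 4 there, against 1.01 times for those genes. Whether the members' levels follow that of Zfpm2 was not tested. Markers of other cells stood out in the same library. The 9 markers of dividing cells summed to 439 CPM in replicate 1, 29.96 to 42.2 CPM in FOG2 OE replicates 2 to 4 and 17.98 to 42.1 CPM in WT. The 10 markers of activated fibroblasts summed to 1883 CPM in replicate 1, 625 to 792 CPM in replicates 2 to 4 and 778 to 944 CPM in WT. Alas2, the single erythroid marker with counts, had 229 CPM in replicate 1, 25.8 to 109 CPM in replicates 2 to 4 and 35.3 to 45.4 CPM in WT, while Hba-a1, Hba-a2, Hbb-bs and Hbb-bt were at 0. Reads not uniquely aligned, 37.1% to 43.4% per library, were not counted for any gene, so these zeros need not mean that globin RNA was absent. The part of these other cells in the members' values was not tested. Without replicate 1, 38 of the 39 members kept a ratio of 2 or more, and Serp2 had 1.96. Since the selection had used the same libraries, this count supports nothing.

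**Figure D3:**
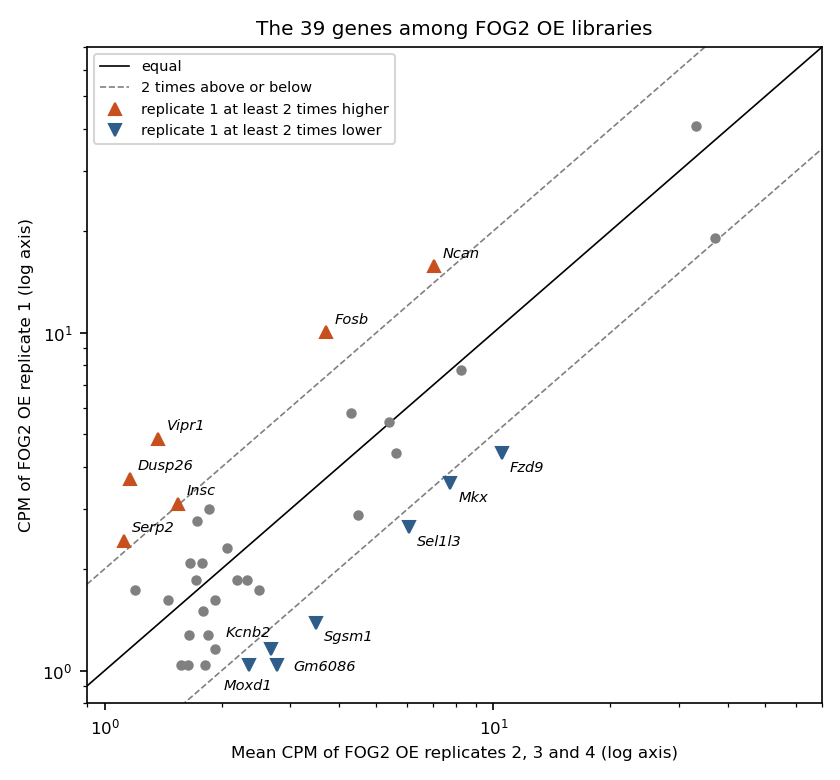
CPM of each of the 39 genes in FOG2 OE replicate 1 (vertical) against its mean in FOG2 OE replicates 2, 3 and 4 (horizontal), both on log axes. The solid line marks equal levels and the dashed lines a factor of 2, and the named genes are the 6 at least 2 times higher and the 7 at least 2 times lower in replicate 1.

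The libraries' sex-linked transcripts crossed the groups. In the 3 FOG2 OE and 2 WT libraries with Xist and without Ddx3y, 38 of the 39 members kept a ratio of 2 or more, counting Sftpa1, which had 0 counts in those WT libraries, and Vipr1 had 1.96. The selection used these libraries too, so that count supports nothing. The ratio moved by over 1.5 times for 7 members. It was lower for Gpr83 at 142 in place of 225, Ncan at 40.1 in place of 78.7, Fosb at 7.06 in place of 13.4, Prr32 at 14.1 in place of 22.6 and Vipr1, and higher for Sel1l3 at 104 in place of 63.3 and Lppr1 at 16.4 in place of 10.5. The X-linked members are Gja6 and Prr32. Their FOG2 OE values in the library with Ddx3y, 5.78 and 2.08 CPM, were the highest of their group, though Gja6 also had 5.57 CPM in replicate 4. In the WT library with Ddx3y they had 0.782 and 0 CPM, neither of them the highest of that group.

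Cell type markers were also summed over the whole groups, which does not place any member in a cell type. The 10 markers of atrial cardiomyocytes summed to 44600 to 56187 CPM in FOG2 OE and to 67168 to 74802 CPM in WT, with none at 0, which fits the labelled tissue, and 3 of the 9 tested, Myl7, Sln and Kcnj3, were lower by edgeR's test and kept their calls in 12 other settings. The 12 markers of smooth muscle and pericytes summed to 2142 to 2678 CPM in FOG2 OE and to 1146 to 1325 CPM in WT, with none at 0. By edgeR 3 of 12 were higher, namely Acta2, Cspg4 and Notch3, of which Notch3 lost its call in 7 of 12 other settings. At an unadjusted p under 0.05, 8 of the 12 were higher and 0 lower, and DESeq2 called 5 higher, with Myh11 and Tagln besides those 3. Acta2 alone had 714 to 1076 CPM in FOG2 OE and 15.02 to 34.3 CPM in WT, and the other 11 summed to 1412 to 1691 CPM in FOG2 OE and to 1131 to 1306 CPM in WT. The 10 markers of fibroblasts summed to 16392 to 21449 CPM in FOG2 OE and to 10983 to 15913 CPM in WT, with 0 of 10 called by edgeR, 5 at an unadjusted p under 0.05 and 2, Col1a1 and Col1a2, by DESeq2. The 6 mast cell markers, to be read beside Milr1, summed to 4.99 to 21.1 CPM in FOG2 OE and to 10.02 to 13.96 CPM in WT, nearly all of it Kit, which other cells also express. The other 5 markers (Cpa3, Mcpt4, Cma1, Tpsb2 and Fcer1a) summed to 0 to 1.73 CPM in FOG2 OE and to 0.466 to 3.39 CPM in WT. The part of any of these cells in the members' values was not tested.

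Most relatives and partners of the members did not pass the test. The 6 lists that hold a member had 86 other genes in the table, and edgeR called 0 of 38 tested higher and 1 lower, Fras1, with a median log2 fold change of 0.13 against 0.02 for all tested genes. At an unadjusted p under 0.05, 5 of the 38 were higher and 5 lower, and DESeq2 called 3 higher and 3 lower. Another 4 lists, of FOG and GATA genes, gonadal genes, sinoatrial node genes and fetal or stress genes of cardiomyocytes, hold no member. In these 4, edgeR called 3 of 46 tested genes higher and 1 lower, with a median of 0.23, and DESeq2 called 7 higher and 2 lower. Of all tested genes 1.55% were higher and 3.29% lower by edgeR. Without FOG2 OE replicate 1 the counts were 3 higher and 2 lower in the lists with a member and 8 higher and 4 lower in the others. Without FOG2 OE replicate 2 or WT replicate 3, 1 gene was higher in the lists with a member. In the lists without a member, 5 genes were higher without FOG2 OE replicate 3, 2 were higher without WT replicate 1, 2 or 3, and 0 were lower without FOG2 OE replicate 2 or 4 or WT replicate 1 or 2. In 7 of these 10 lists no gene was called among 48 tested. In those lists, 5 genes were higher and 3 lower at an unadjusted p under 0.05, and DESeq2 called 3 higher (Colec11, Npy1r and Ramp1) and 2 lower (Gata2 and Herpud1). The 7 were the lecticans and hyaluronan link genes around Ncan, the SEL1L and ER degradation genes, the glutamate receptor and SYNDIG genes, the neuropeptide genes around Gpr83, the collectins around Sftpa1, the FOG and GATA genes other than Zfpm2, and gonadal genes of the setting in which GATA4 and FOG2 act together. Gata4 averaged 89.6 ± 15.2 CPM in FOG2 OE and 73.4 ± 3.20 CPM in WT (log2 fold change 0.17 ± 0.14, SE; adjusted p = 0.563 by edgeR).

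Fras1 went the other way from Frem3. The protein of Fras1 forms a complex with FREM proteins in basement membranes, and the gene fell to 42.5 ± 7.82 CPM in FOG2 OE (SD, n = 4), against 144 ± 15.6 CPM in WT (SD, n = 3), a log2 fold change of -1.89 ± 0.15 (SE; adjusted p = 2.04e-04 by edgeR's quasi-likelihood test). Frem2 averaged 17.3 ± 5.77 CPM in FOG2 OE and 30.9 ± 4.53 CPM in WT (adjusted p = 0.0590 by the same edgeR test, while DESeq2 called it lower), and Frem1 14.3 ± 0.722 CPM in FOG2 OE and 10.6 ± 0.914 CPM in WT (adjusted p = 0.271 by edgeR). Among the sinoatrial node genes reported here, 1 of 11 tested rose. It was Cpne5, a calcium-dependent membrane-binding protein, which had 86.6 ± 41.4 CPM in FOG2 OE and 7.89 ± 2.46 CPM in WT (log2 fold change 3.34 ± 0.54, SE; edgeR adjusted p = 0.0123). At an unadjusted p under 0.05, 3 of the 11 were higher, and DESeq2 called Cpne5 and Cacna1g, a T-type calcium channel, which had 103 ± 48.9 CPM in FOG2 OE and 22.2 ± 10.4 CPM in WT (2.09 ± 0.53; edgeR adjusted p = 0.0684). Of 18 fetal and stress genes of cardiomyocytes, Acta2, smooth muscle actin (5.05 ± 0.33), and Tnnt1, the slow skeletal troponin T (2.07 ± 0.25), rose and Ankrd1, a stress-responsive muscle protein, fell (-1.97 ± 0.39) by edgeR's test. In that list 6 genes were higher and 3 lower at an unadjusted p under 0.05, and DESeq2 called Actn1, Fhl1 and Tagln higher besides the same 3 genes. Across 12 other settings, the calls of Acta2, Tnnt1 and Fras1 held. Cpne5 lost its call with no filter and without any single WT replicate (adjusted p up to 0.0770), and Ankrd1 in 6 settings, among them without each WT replicate and without FOG2 OE replicates 2 and 4 (adjusted p up to 0.130).

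A further 9 families, added once the members' names were known, held 102 other genes, of which 61 were tested, 5 were higher and 1 was lower by edgeR, with a median log2 fold change of 0.15. Over all tested genes the shares were 1.55% higher and 3.29% lower and the median 0.02. In 5 of the families, the Frizzled receptors around Fzd9, the connexins around Gja6, the L1 adhesion genes around Nfasc, the Kv2 channel genes around Kcnb2 and the TALE homeobox genes around Mkx, no gene was called among 38 tested, with 3 higher and 2 lower at an unadjusted p under 0.05, while DESeq2 called 0 higher and 1 lower, Kcnv2. All 9 tested Frizzled genes had log2 fold changes between -0.07 and 0.25. In the family of Fosb, the AP-1 genes Fos, at 30.5 ± 15.5 CPM in FOG2 OE and 8.07 ± 2.202 CPM in WT (log2 fold change 1.80 ± 0.41, SE; edgeR adjusted p = 0.0492), and Jun, at 75.4 ± 17.5 CPM in FOG2 OE and 34.6 ± 2.998 CPM in WT (1.01 ± 0.19; edgeR adjusted p = 0.0198), were higher. Fos lost its call in 7 of 12 settings and Jun without any single WT replicate. In the family of Col22a1, Col12a1, another collagen of interfaces between tissues, had 31.1 ± 12.9 CPM in FOG2 OE and 3.83 ± 1.21 CPM in WT (2.90 ± 0.35; edgeR adjusted p = 0.00272) and held its call in all 12 settings. In the family of Gipr and Vipr1, the peptide hormone receptor genes Adcyap1r1 (0.81 ± 0.17; edgeR adjusted p = 0.0267) and Pth1r (1.22 ± 0.28; edgeR adjusted p = 0.0432) were higher, and in that of Chst3, Chst11 was lower (-0.96 ± 0.19; edgeR adjusted p = 0.0236). These 3 calls were lost in 4, 6 and 6 of the 12 settings.

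**Figure D4:**
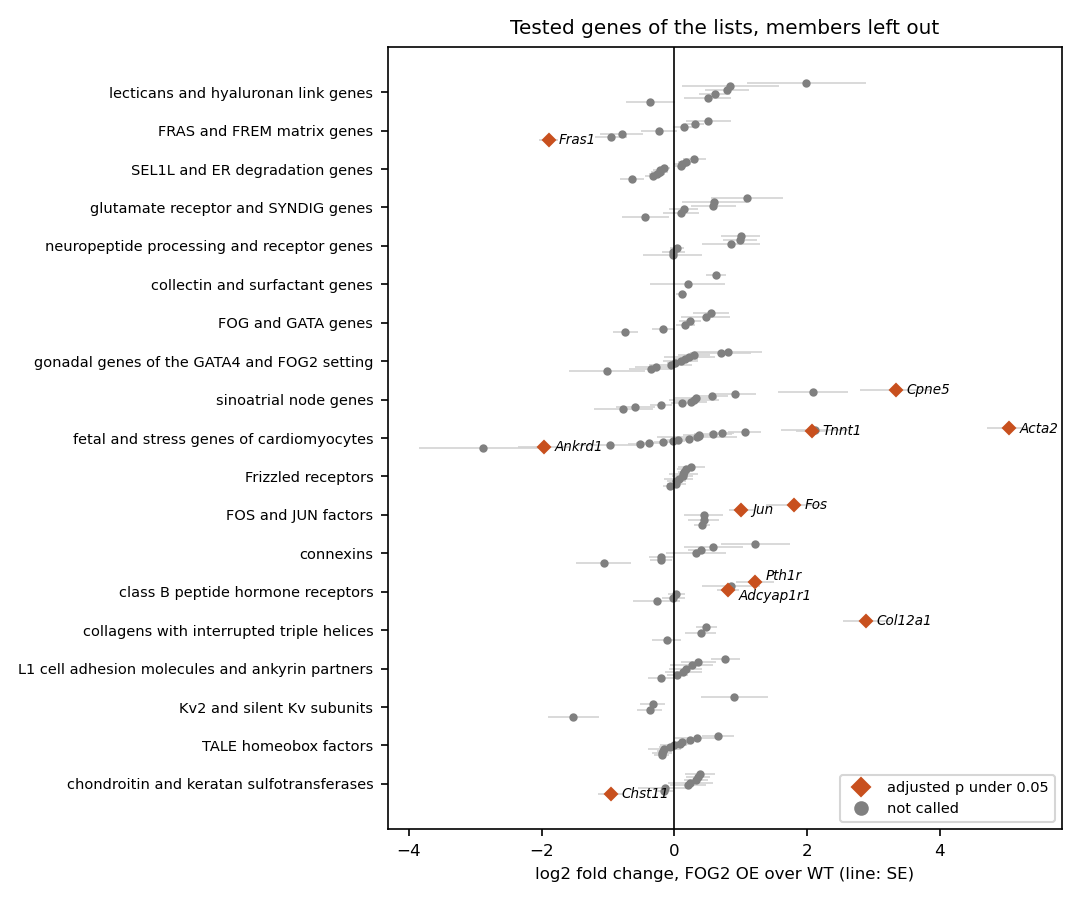
Log2 fold change, FOG2 OE over WT, of the tested genes in 19 lists, with the members left out and the SE as a line. The lists of FOG and GATA, gonadal, sinoatrial node and fetal or stress genes hold no member, and the others are relatives or partners of members. Diamonds with names passed the edgeR test at an adjusted p under 0.05, and the other points did not. Fras1, Ankrd1 and Chst11 lie below 0 and the other named genes above it.

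The members lay on 15 chromosomes, with 6 on chromosome 5 and 4 each on chromosomes 1, 8 and 9, and 37 of the 38 annotated in GENCODE M21 are protein coding. Of the nearest tested genes lying wholly to either side of the members, 73 in all, 3 were higher and 3 lower by edgeR, beside 1.55% and 3.29% of all tested genes, with a median log2 fold change of 0.01. Other members and genes that overlap the member, such as Atp8a1 at Shisa3, were passed over, so closer genes can exist. The higher ones were 2900026A02Rik, beside Crybb3 and Sgsm1, Slc7a2, on the side of Mtmr7, and Smarca1, on the side of Prr32, and the lower ones Eif4ebp1, on that of Dusp26, Yipf7, on that of Shisa3, and Adrbk2, beside Crybb3. The gaps were wide for Slc7a2 at 228 kb, Smarca1 at 2717 kb, Eif4ebp1 at 3813 kb and Yipf7 at 1893 kb. Of these, 2900026A02Rik and Yipf7 kept their calls in all 12 other settings. Pairs of members within 1 Mb of each other were Fosb and Gipr, 137 kb apart, Chst3 and Oit3, 740 kb apart, and 3 pairs formed by Crybb3, Sgsm1 and Wscd2 on chromosome 5.

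In that stretch, Crybb3, on the minus strand from 113075839 to 113081584, and Sgsm1, on the minus strand from 113243220 to 113310786, flank 2900026A02Rik, a minus strand gene that was well expressed in both groups. It had 158 ± 41.2 CPM in FOG2 OE (SD, n = 4) and 53.4 ± 5.98 CPM in WT (SD, n = 3), a log2 fold change of 1.44 ± 0.22 (SE; adjusted p = 0.00783 by edgeR's quasi-likelihood test), and held its call in all 12 other settings. It lies 4.74 kb from Crybb3 and 22.0 kb from Sgsm1, with all 3 genes on the same strand. Crybb3 lies downstream of 2900026A02Rik and Sgsm1 upstream of it. Any reads running past the end of 2900026A02Rik were not separated from those of Crybb3 in these counts, and their part was not tested. Crybb3 had 1.73, 1.24, 1.08 and 1.28 CPM in FOG2 OE, against 0.469, 0.912 and 0.233 CPM in WT. Sgsm1 had 1.39, 2.79, 4.67 and 3.02 CPM in FOG2 OE, against 0.587, 0.261 and 0.932 CPM in WT. Tmem211, on the plus strand between 2900026A02Rik and Sgsm1, had 2 counts in all FOG2 OE libraries and 1 in all WT libraries. Beyond the members, Cmklr1 did not pass the test (0.53 ± 0.21; edgeR adjusted p = 0.218), and Adrbk2 was lower (-0.65 ± 0.15; edgeR adjusted p = 0.0468), a call lost in 6 of 12 settings.

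**Figure D5:**
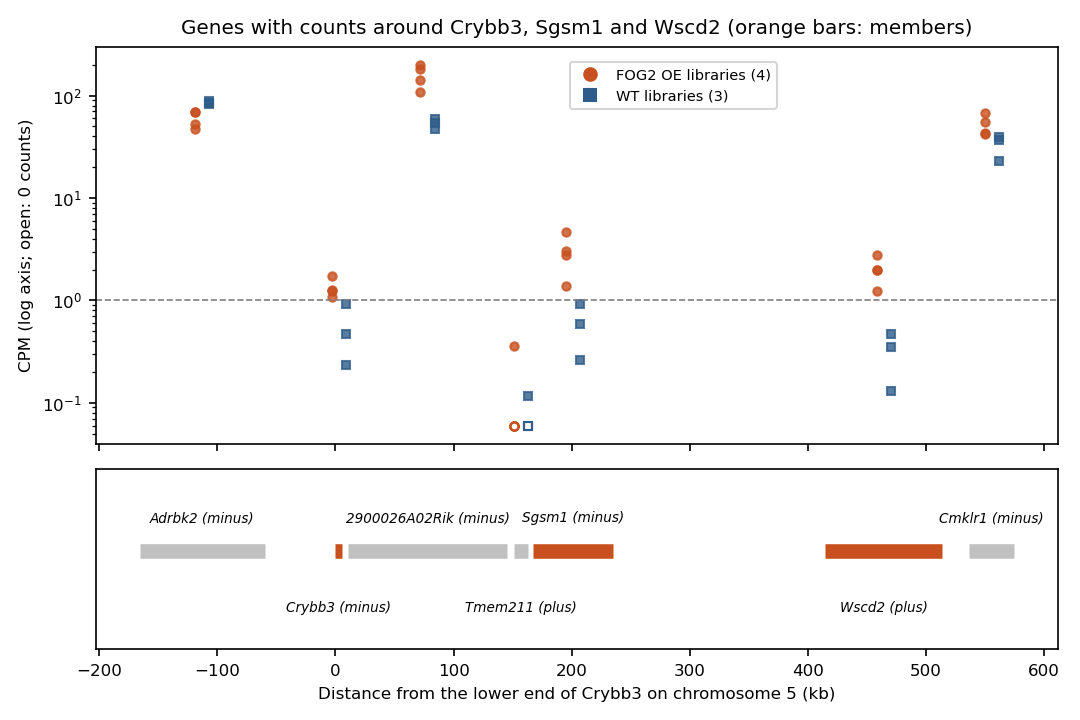
CPM per library (top, log axis) of the genes with counts around Crybb3, Sgsm1 and Wscd2, placed by their distance in kb from the lower end of Crybb3, and the extent and strand of each gene (bottom, members in orange). Circles are FOG2 OE and squares WT libraries, and open symbols mark 0 counts. In WT the 3 members lie under 1 CPM, as does Tmem211, while Adrbk2, 2900026A02Rik and Cmklr1 lie above 20 CPM.

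Exons of 9 members overlapped those of another annotated gene by 16 to 290 bases, on the opposite strand for 8 of them and on the same strand for Mkx. No strand setting of the counting is given in the sources used here, so reads of such pairs could not be told apart. Among the partners, Vps37a, which overlaps Mtmr7, had 73.3 ± 5.09 CPM in FOG2 OE and 72.7 ± 6.68 CPM in WT, and Atp8a1, which overlaps Shisa3, 67.2 ± 10.8 CPM in FOG2 OE and 82.7 ± 14.4 CPM in WT. Itpkb, which overlaps Gm5069, had 57.8 ± 5.68 CPM in FOG2 OE and 41.3 ± 0.447 CPM in WT, and Polg2, which overlaps Milr1, 5.03 ± 0.480 CPM in FOG2 OE and 4.47 ± 0.403 CPM in WT.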

How the data were processed

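The deposited values are raw counts per gene from 7 libraries, 4 FOG2 OE and 3 WT, as the authors made them. Per the submitters' processing notes, the build was mm10 and the tools DESeq2, HTSeq 0.6.0 and STAR, with no roles or strand setting given. One label names polyA selection while the labels' protocols name ribosomal RNA removal, so the selection step is uncertain. Of all reads, 27.8% to 33.1% per library lay in gene rows. Rows naming no gene (23.4% to 30.5% without a feature, 37.1% to 43.4% not uniquely aligned, 0.101% to 0.254% ambiguous) were left out.

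Tests used edgeR 4.0.16 in R 4.3.3 on all genes: filterByExpr (minimum count 10, minimum total 15), TMM, robust dispersions, the two-sided quasi-likelihood F test, and Benjamini-Hochberg adjusted p with a threshold of 0.05. The script was tested on simulated data. Labels do not say that libraries are separate animals, so p-values measure the spread between libraries, which may be technical. Counting intervals are exact binomial (Clopper-Pearson).

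The members and lists were chosen with earlier results of these data known. The genes named are Zfpm2, the 30 members with the highest FOG2 OE mean and a full symbol, those nearest each limit, and up to 4 called genes of each of the 10 lists of partners and heart genes. A few genes are not reported here and were left out of the lists. All other named genes were chosen after their values were seen or to account for every member. Alternatives were other scalings, limits and filters, DESeq2 1.42.0, the replicate number as a block, each library left out and, added after seeing the data, the libraries with Xist.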

Additional observations from a re-analysis of the deposited data

Results flagged for a closer look

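Of the 30 named members, 4 had a FOG2 OE library far from the other libraries of that group, by the gap to the nearest value over the whole range (Dixon's test at 95%). The usual rate, by which chance flags about 1 in 20 groups, cannot be applied here, because the selection set a minimum in every FOG2 OE library. Fosb had 10.1 CPM in FOG2 OE replicate 1, against 3.595 to 3.83 CPM in the other FOG2 OE libraries. Vipr1 had 4.85 CPM in replicate 1, against 1.16 to 1.71 CPM in the others. Dusp26 had 3.70 CPM in that library, against 1.08 to 1.24 CPM in the others. Agbl2 had its outlying value in replicate 2, at 1.55 CPM, against 2.31 to 2.34 CPM in the others. The cause was not tested.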

How the results depend on the processing

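The 39 members numbered 32 with TMM-scaled totals, 25 with totals that leave out the 10 most abundant genes (23 of them shared), 12 with WT under 0.5 CPM, 131 with WT under 2 CPM, 12 with FOG2 OE at 2 CPM or more, 25 with a 4-fold limit, and 39 to 64 with 1 library left out. In the libraries with Xist, chosen after seeing the data, there were 73, of which 38 were shared. Genes higher numbered 444 with library totals only, 437 with DESeq2 and 75 to 493 with 1 library left out, in place of 206, and genes lower 673 with DESeq2 and 181 to 658 with 1 library left out, in place of 438. Library totals put the median log2 fold change over tested genes at 0.15, against 0.02. In the 10 lists of partners and heart genes, genes higher numbered 10 with library totals, 10 with DESeq2 and 2 to 11 with 1 library left out, in place of 3, and genes lower 5 with DESeq2 and 1 to 6 with 1 library left out, in place of 2. With the replicate number as a block, which used replicates 1 to 3 of each group, 123 genes were higher and 250 lower. The deviations of same-numbered libraries correlated at 0.0789, 0.0136 and 0.072, so the numbers are not taken to pair them. Zfpm2 kept its call in 12 settings (2.71 to 2.99). Of 239 recomputed ratios of the named members, 21 moved by more than the relative spread between the FOG2 OE replicates. All 21 came with a WT library left out, and the spread between WT libraries was not part of that limit. These moves can thus lie within the WT spread. None of the 239 ratios fell below 1, but the limit of 1 CPM fixed that in advance wherever a library was left out. TMM scaling multiplied ratios by 0.897 to 0.948. The cause was not tested. Depth limited the WT side of each ratio: 3 counts in a library stood for 0.347 to 0.539 CPM.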
